A study of Rattus norvegicus with 2 samples.

Results

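The cytochrome P450 genes of families 1 to 4 were examined in rat neural stem cells after sevoflurane, an inhaled anaesthetic. Members were chosen by name alone: a probe belonged to the set if its RefSeq mRNA accession is that of a rat gene whose symbol starts with Cyp1, Cyp2, Cyp3 or Cyp4 and a letter. This gave 48 genes with 49 probes, of 13888 genes that could be named on the array and 24684 probes in all. The gene table used for names lists 69 protein-coding genes of these families, and 21 of them had no probe matched through an accession. The sevoflurane sample was of cells kept under 2.4% sevoflurane for 6 h, and the control sample of cells kept under 0% sevoflurane for the same time. Cells of both groups came from the hippocampus of Sprague-Dawley rats at postnatal day 3, grew in serum-free medium with bFGF, were used at passage 3, and per the labels' protocols then spent 24 h in an incubator at 5% CO2. Other labels name only 6 h, so the time of harvest is uncertain. There was 1 array per group, hybridised with Cy3-labelled RNA, so nothing below has a replicate check and no p-value is given. The series' design text speaks of more than 1 independent experiment, while 1 sample per group was analysed here, so it is uncertain how many cultures the RNA on each came from.

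P450 enzymes are haem proteins, mostly of the endoplasmic reticulum, that insert an oxygen atom into a substrate with electrons passed on by the reductase Por. Family 1 is induced through the aryl hydrocarbon receptor (AHR), many genes of families 2 and 3 through the drug-sensing receptors Nr1i3 (CAR) and Nr1i2 (PXR), and the Cyp4a genes through Ppara. Most members are known from the liver, where they oxidise drugs, steroids and fatty acids, and in humans CYP2E1 is the main enzyme that releases fluoride from sevoflurane. In brain, P450 levels are generally low, and the products of arachidonic acid made by families 2 and 4 act on blood vessels and inflammatory cells.

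Levels are given as the processed signal of the scanner software, a background-corrected intensity on a linear scale, with that software's own error of the spot after the sign ±. That error is technical and leaves out differences between cultures. Differences are log2 values, sevoflurane minus control, after the upper quartile of each array was set equal. Where ± follows a difference, it combines the errors of both spots in log2 units. It leaves out differences between cultures and the choice of scaling. Upper quartiles were 359 for sevoflurane and 692 for control, so that 0.95 is added to every log2 ratio of signals. Lower quartiles, 16.4 for sevoflurane and 3.97 for control, lay in the opposite order. A gene counted as measured when most spots of a probe were well above background on both arrays, and a change of at least 2-fold (1 log2 unit) was taken as the rule of size. Because the arrays differ so at low signal, an intensity-dependent correction, which subtracts the trend of the difference with level over all measured probes, is given beside the values, and such values are called corrected. All 11 neural stem cell markers with a named probe, among them Nes, Sox2 and Vim, were measured on both arrays. As scaled 3 of them were at least 2-fold higher and 1 lower (median -0.45, corrected -0.31; 0 and 6 under median scaling), with an unscaled summed signal of 37034 under sevoflurane and 54908 in control. Of all measured genes 28.2% were higher and 11.2% lower as scaled, and 10.5% higher and 43.5% lower under median scaling. Each array was scanned on a day of its own, and day and group cannot be told apart.

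Of the 48 P450 genes, 20 (41.7%) were measured on both arrays, against 72.3% of 13862 named genes with usable spots. A further 16 (33.3%) were well above background on the sevoflurane array only, against 15.4% of all named genes, and 12 on neither array. No member was above background on the control array only. Of the 20 measured genes 15 were at least 2-fold higher and 0 at least 2-fold lower, with a median difference of 1.79, where 28.2% of all 10028 measured genes were higher, 11.2% lower, and the median was 0.27. The members were mostly dim, however. When the measured genes were put in order of level and split in 10 equal groups, 15 members fell into the 3 dimmest. In these 3 groups together 58.5% of all genes were at least 2-fold higher, and 11 of the 15 members were. The members were not spread evenly over them, however. Group 1, the dimmest, held 11 members and had 75.6% of all its genes higher. Group 2 held 3 members (58.7% of its genes higher) and group 3 held 1 (41.1%). The other 5 members lay in groups 4 to 6, where 22.7% of all genes were higher and 4 of the 5 members were. After the intensity-dependent correction 6 of the 20 members were at least 2-fold higher and 2 lower, with a median of 0.57, where 15.0% of all genes were higher and 15.5% lower.

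**Figure D1:**
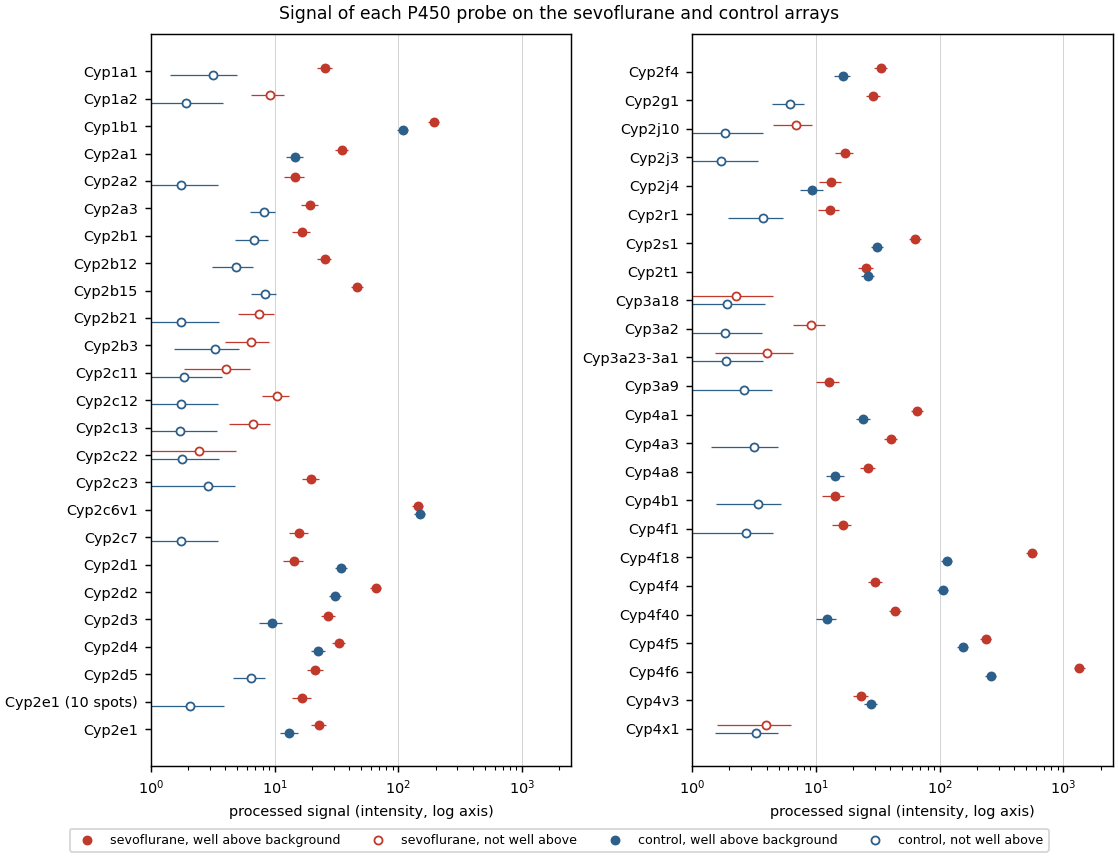
Processed signal (log axis) of each of the 49 P450 probes under sevoflurane (red) and in control (blue), with the scanner software's error as bars, cut off at 1. Filled points are well above background. Cyp4f6 and Cyp4f18 are the brightest on the sevoflurane array, at 1350 and 558, and most other probes lie below 100 on both arrays.

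The Cyp4f genes, whose enzymes in rodents oxidise the end of the chain of arachidonic acid and of the leukotriene LTB4, held the highest values and also a member that went the other way. Cyp4f6 had a signal of 1350 ± 135 on the sevoflurane array, against 258 ± 25.9 on the control array, a difference of 3.33 ± 0.20 (10.1-fold after scaling). Cyp4f18, whose mouse counterpart inactivates LTB4 in neutrophils, had 558 ± 55.9 on the sevoflurane array, against 115 ± 11.6 on the control array, a difference of 3.23 ± 0.21. For both genes the groups lay far apart even before scaling, and their corrected differences were 3.46 and 3.14. Cyp4f5 had 236 ± 23.7 on the sevoflurane array, against 155 ± 15.6 on the control array, a difference of 1.55 (1.33 corrected). Cyp4f40 was dim, with 43.8 ± 4.89 on the sevoflurane array, against 12.3 ± 2.19 on the control array. Its difference of 2.78 came to 1.22 once corrected.

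Cyp4f4 was the lowest member of the subfamily relative to control, with 30.3 ± 3.83 on the sevoflurane array, against 107 ± 10.8 on the control array. Its difference was -0.87 ± 0.23 as scaled and -1.79 corrected, and it kept a negative sign in all 6 scalings tried. Cyp4f1 was well above background on the sevoflurane array only, at 16.5 ± 2.89, against 2.74 ± 1.79 on the control array. In the gene table Cyp4f5, Cyp4f40, Cyp4f4, Cyp4f1 and Cyp4f6 follow each other on the same chromosome in this order, with the unprobed Cyp4f37 after Cyp4f5, whereas Cyp4f18 lies on another chromosome. Cyp4f40 and Cyp4f4, next to each other in that order, therefore had differences of opposite sign. Sequences of the probes were not used here, so signal shared between related genes of a subfamily cannot be told apart from a gene's own.

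**Figure D2:**
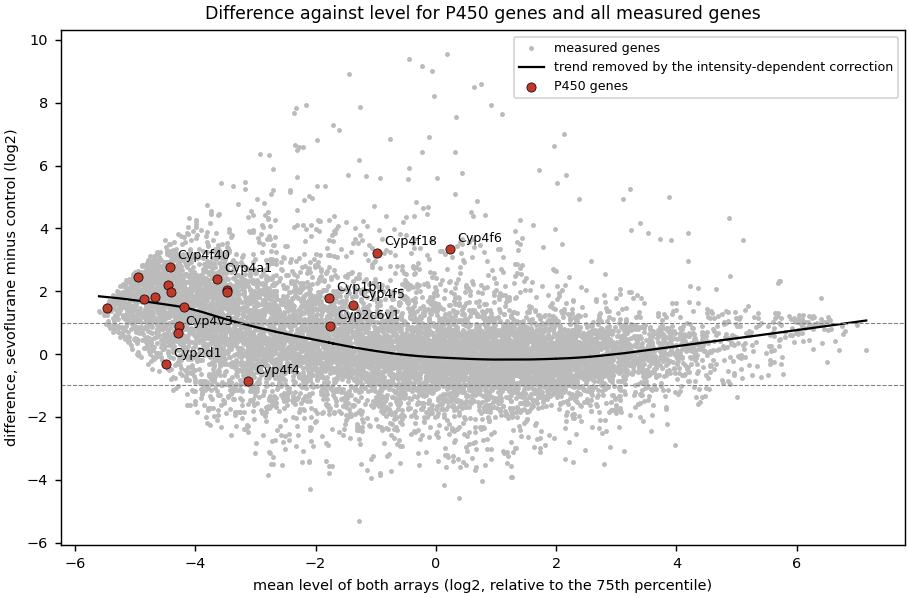
Difference (sevoflurane minus control, log2) against the mean level of both arrays (log2, relative to the upper quartile) for 10028 measured genes (grey) and the 20 measured P450 genes (red). The black line is the trend that the intensity-dependent correction subtracts, and dashed lines mark 2-fold: Cyp4f6 and Cyp4f18 lie far above the trend, Cyp4f4 and Cyp2d1 below it, and most dim members near it.

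Family 1 is the classic set of AHR targets. Cyp1b1, which is expressed in many tissues besides liver and hydroxylates oestradiol, had a signal of 193 ± 19.5 on the sevoflurane array, against 109 ± 11.1 on the control array. Its difference was 1.77 ± 0.21 (1.40 corrected), which is 1.32 above the median of its level group. Cyp1a1, which oxidises polycyclic hydrocarbons, had 25.4 ± 3.47 on the sevoflurane array, against 3.21 ± 1.78 on the control array, where it was not well above background. The lower bound of its fold was 6.76 as scaled and 2.0 corrected. For it the control level was raised to the lowest level among probes well above background on that array. Cyp1a2 was not well above background on either array, with 9.18 ± 2.67 under sevoflurane and 1.91 ± 1.90 in control. Of the 3 genes of this family, Cyp1b1 was thus the brightest, and the only one with a signal on both arrays.

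The core of the element bound by AHR and its partner Arnt reads GCGTG. It was searched on both strands in windows from 250 bases before to 50 bases after the start of transcription, from RefSeq on build GRCr8. By the rule for sequences, which takes family 1 and the measured members with the highest and lowest difference, the windows found in the table were those of Cyp1b1 (chr6:21094315-21094614, plus strand), Cyp4f6 (chr7:12708329-12708628, minus strand) and Cyp1a2 (chr8:66978100-66978399, minus strand). They are shown 5′ to 3′ on the strand of the gene, with each match to GCGTG or its reverse complement in capitals, to set the member of family 1 measured on both arrays and the member with the highest difference beside a dim one.
Cyp1b1: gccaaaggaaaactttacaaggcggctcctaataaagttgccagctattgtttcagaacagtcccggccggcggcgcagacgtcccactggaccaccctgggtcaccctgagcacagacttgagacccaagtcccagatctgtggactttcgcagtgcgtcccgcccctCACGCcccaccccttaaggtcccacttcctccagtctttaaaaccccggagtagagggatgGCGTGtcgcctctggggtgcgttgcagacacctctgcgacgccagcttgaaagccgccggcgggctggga
Cyp4f6: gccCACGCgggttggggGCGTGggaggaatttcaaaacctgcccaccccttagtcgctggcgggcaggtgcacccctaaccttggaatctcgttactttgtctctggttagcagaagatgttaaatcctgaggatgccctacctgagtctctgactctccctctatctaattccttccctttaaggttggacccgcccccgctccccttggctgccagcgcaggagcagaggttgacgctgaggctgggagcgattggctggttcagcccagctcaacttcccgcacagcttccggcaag
Cyp1a2: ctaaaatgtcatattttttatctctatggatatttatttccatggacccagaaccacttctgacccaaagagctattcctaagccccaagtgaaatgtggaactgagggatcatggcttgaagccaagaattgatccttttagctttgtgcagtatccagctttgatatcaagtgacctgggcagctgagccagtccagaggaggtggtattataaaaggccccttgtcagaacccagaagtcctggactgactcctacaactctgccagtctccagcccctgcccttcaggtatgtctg
The Cyp1b1 window held 2 matches, which begin 81 and 20 bases before the start, the Cyp4f6 window held 2, which begin 247 and 233 bases before it, and the Cyp1a2 window held 0. Such short matches were common: 29.7% of all 33469 windows in the table held at least 1, and 10 of 44 windows (22.7%) of 42 member genes did. Besides Cyp1b1 and Cyp4f6, the measured members with a match were Cyp4f40, Cyp4f5 and Cyp2t1, with differences of 2.78, 1.55 and 0.90 (1.22, 1.33 and -0.62 corrected). Matches were also in windows of Cyp2b1, Cyp2r1 and Cyp4f1, above background on the sevoflurane array only, and of Cyp4x1, above it on neither. Windows of Cyp1a1 and Cyp4f4, which the rule also takes, were not available. A match is a description of letters and not of binding.

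Family 2 was the largest, with 29 genes, of which 11 were measured on both arrays. As scaled 8 of these were at least 2-fold higher, and after the correction 0 were higher and 1 lower. Of all measured genes 28.2% were higher as scaled, and 15.0% higher and 15.5% lower corrected. All of the 11 but Cyp2c6v1 lay in level groups 1 and 2, where 75.6% and 58.7% of all genes were higher as scaled. Cyp2c6v1, a phenobarbital-responsive enzyme of rat liver, was the brightest of the 11 on both arrays. Its signal was 143 ± 14.5 on the sevoflurane array, against 150 ± 15.1 on the control array, equal within the spot errors before scaling, and its difference was 0.88 (0.52 corrected). Cyp2s1, which in humans and mice can be induced through AHR, had 63.5 ± 6.73 on the sevoflurane array, against 31.4 ± 3.58 on the control array, a difference of 1.96 (0.86 corrected).

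The Cyp2d genes, relatives of the human drug-metabolising gene CYP2D6, lie side by side in the gene table in the order Cyp2d4, Cyp2d5, Cyp2d1, Cyp2d3 and Cyp2d2. Cyp2d2 had 65.9 ± 7.0 on the sevoflurane array, against 30.8 ± 3.54 on the control array (difference 2.04, 0.95 corrected). Cyp2d3 had 27.1 ± 3.54 on the sevoflurane array, against 9.49 ± 1.99 on the control array (2.46, 0.75 corrected). Cyp2d1 was the exception in this cluster. Its signal was 14.4 ± 2.62 on the sevoflurane array, against 34.7 ± 3.87 on the control array, which gives a difference of -0.33 as scaled and -1.90 corrected. That sign was not stable, since normexp gave 0.57. Cyp2d4, the form best known from rat brain, had 33.0 ± 4.06 on the sevoflurane array, against 22.5 ± 2.83 on the control array. Its difference was 1.50, but 0.01 corrected and -0.08 after quantile normalization.

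Cyp2e1, the counterpart of the human sevoflurane-defluorinating enzyme, was dim and was the only member with a pair of probes. The probe measured on both arrays had 22.8 ± 3.26 on the sevoflurane array, against 13.2 ± 2.18 on the control array. This is a difference of 1.74, lying 0.05 from the median of its level group, and came to 0.07 corrected and -0.37 after quantile normalization. The other probe, printed in 10 spots per array, averaged 16.7 on the sevoflurane array, against 2.08 on the control array, with SDs between spots of 0.33 and 0.45 log2 units. It was not well above background on the control array, and the lower bound of its fold was 4.46 as scaled and 1.26 corrected.

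Among the rest of family 2, Cyp2a1, a steroid hydroxylase of rat liver, had 34.9 ± 4.21 on the sevoflurane array, against 14.7 ± 2.26 on the control array (difference 2.20, 0.62 corrected). Cyp2f4, a lung enzyme that activates naphthalene, had 33.6 ± 4.12 on the sevoflurane array, against 16.5 ± 2.44 on the control array (1.98, 0.42 corrected). Both signals were higher on the sevoflurane array even before scaling, but both genes lay in the dimmest of the 10 level groups, whose median difference was 1.69. Cyp2j4, an arachidonic acid epoxygenase, had 13.4 ± 2.70 on the sevoflurane array, against 9.40 ± 1.97 on the control array. Its spot errors overlap, and its difference of 1.46 came to -0.36 corrected and -1.37 after quantile normalization. Cyp2t1 had 25.4 ± 3.48 on the sevoflurane array, against 26.3 ± 3.15 on the control array, equal within the spot errors, with a difference of 0.90 (-0.62 corrected).

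In the remainder of family 4, Cyp4a1 and Cyp4a8 encode fatty acid omega-hydroxylases; Cyp4a1 is strongly induced by Ppara ligands in rat liver. Cyp4a1 had 65.9 ± 6.97 on the sevoflurane array, against 24.1 ± 3.10 on the control array, a difference of 2.39 ± 0.24 (1.20 corrected). Cyp4a8 had 26.4 ± 3.58 on the sevoflurane array, against 14.4 ± 2.35 on the control array, a difference of 1.82 (0.19 corrected). Cyp4a3, a close relative, was well above background on the sevoflurane array only, at 40.2 ± 4.67, against 3.18 ± 1.76 on the control array. The lower bound of its fold was 10.7 as scaled, and 3.35 corrected. Cyp4v3, the rat counterpart of the human eye disease gene CYP4V2, had 23.2 ± 3.25 on the sevoflurane array, against 27.8 ± 3.37 on the control array, with a difference of 0.69 (-0.84 corrected). Family 4 as a whole had 8 of 12 genes measured. Of these 6 were at least 2-fold higher as scaled, and 5 higher and 1 lower once corrected. The shares over all measured genes were 28.2% higher as scaled, and 15.0% higher and 15.5% lower corrected. Cyp4a8, Cyp4f40 and Cyp4v3 lay in level group 1 (75.6% of all genes higher as scaled), Cyp4a1 in group 2 (58.7%) and Cyp4f4 in group 3 (41.1%). Cyp4f5 and Cyp4f18 lay in group 5 (19.9%) and Cyp4f6 in group 6 (16.6%).

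**Figure D3:**
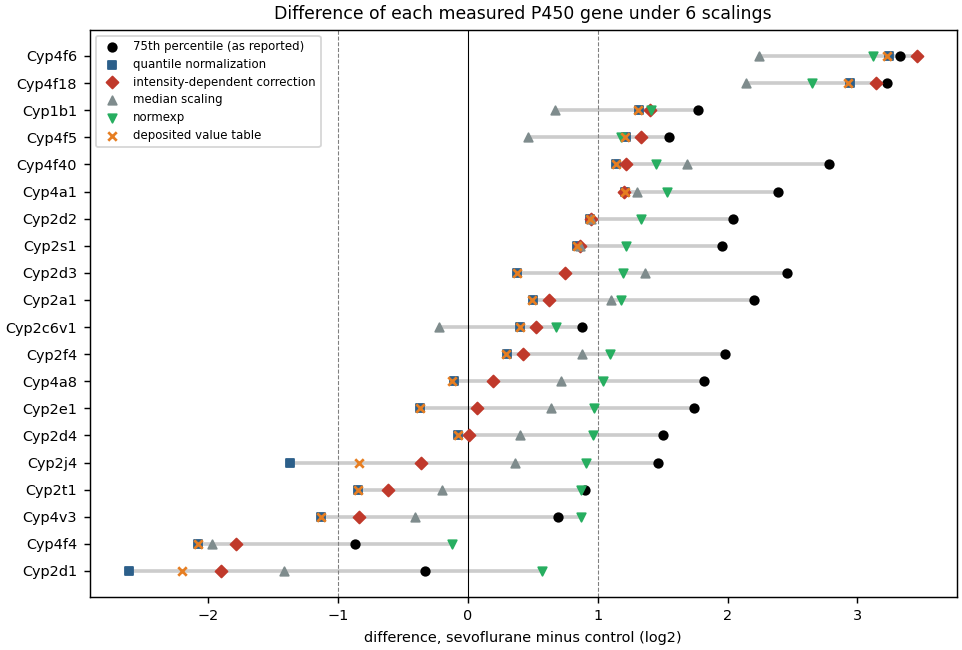
Difference (sevoflurane minus control, log2) of each of the 20 measured P450 genes under 6 scalings, with grey bars from the lowest to the highest value and dashed lines at 2-fold. Cyp4f6, Cyp4f18, Cyp4f40 and Cyp4a1 stay beyond 2-fold in all 6, while 8 genes change sign among them.

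Under the 6 scalings, Cyp4f6 ranged from 2.24 to 3.46, Cyp4f18 from 2.14 to 3.23, Cyp4f40 from 1.14 to 2.78 and Cyp4a1 from 1.20 to 2.39. These 4 genes were at least 2-fold higher in every one. Cyp1b1 and Cyp4f5 were so in 5 of the 6, falling short under median scaling at 0.67 and 0.46. In all, 11 members were above 0 under all 6 scalings, 1 member (Cyp4f4) was below 0 under all 6, and 8 changed sign. Counts over all 6 scalings are not given here for all measured genes, so these describe the members alone. Under single scalings, from 10.5% (median scaling) to 28.2% (as scaled) of all measured genes were at least 2-fold higher. The dimmest level group, where most members lay, had a median difference of 1.69 as scaled. The scalings use the same pair of arrays and are not independent checks.

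The 16 genes above background on the sevoflurane array only were Cyp1a1, Cyp2a2, Cyp2a3, Cyp2b1, Cyp2b12, Cyp2b15, Cyp2c7, Cyp2c23, Cyp2d5, Cyp2g1, Cyp2j3, Cyp2r1, Cyp3a9, Cyp4a3, Cyp4b1 and Cyp4f1. Their signals ran from 12.7 to 46.3 on the sevoflurane array (median 18.2), and from 1.72 to 8.42 on the control array (median 3.31). A lower bound for the fold sets the scaled sevoflurane level against the higher of the gene's own control level and the lowest level among probes well above background on the control array. That lowest level, a signal of 7.22, is not a sharp limit. Cyp2a3 and Cyp2b15 had 8.23 and 8.42 on the control array and were not well above background there. The bounds also leave out the spot errors, so they are not strict. These bounds ran from 3.38 for Cyp3a9 to 10.7 for Cyp4a3, and the next highest was 10.6 for Cyp2b15. Their median was 4.54, and that of all 2131 genes above background on the sevoflurane array only was 4.94. These bounds depend on the scaling. All 16 were at least 2-fold as scaled, but so were all of the 2131 genes, so that count does not set the members apart. Under median scaling 11 of the 16 were, against 64.6% of the 2131 genes. After the intensity-dependent correction 4 were, against 23.5%, and after quantile normalization 2 (Cyp2b15 and Cyp4a3), against 13.0%. The corrected bounds had a median of 1.30 and reached 3.43 for Cyp2b15, and after quantile normalization the measured differences of Cyp2a3, Cyp2b1, Cyp2r1, Cyp3a9 and Cyp4b1 were below 0. Values below background have no firm order.

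Among genes dim on the control array, the share well above background on the sevoflurane array was near the same for P450 genes and all genes. Of the 28 members not well above background on the control array, 16 (57.1%) were above it on the sevoflurane array, and so were 58.6% of all 3634 such genes. Of 10 hepatocyte marker genes in the same position 5 were, among them Alb, the serum albumin gene, with 29.6 on the sevoflurane array against 6.72 on the control array. The negative control spots, 153 per array, had a 95th percentile of 2.48 for sevoflurane and 1.98 for control. The highest of them was at 12.1 for sevoflurane and 2.38 for control. The dimmest of the 16 genes, Cyp3a9, had 12.7 on the sevoflurane array. Of the 49 member probes, 2 lay at or below the 95th percentile under sevoflurane and 13 in control. The same count over all probes is not given here. The part of low-level signal in these values was not tested.

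The genes below background on both arrays were Cyp1a2, Cyp2b3, Cyp2b21, Cyp2c11, Cyp2c12, Cyp2c13, Cyp2c22, Cyp2j10, Cyp3a2, Cyp3a18, Cyp3a23-3a1 and Cyp4x1. Their signals lay between 2.27 and 10.5 under sevoflurane and between 1.73 and 3.33 in control. They include the sex-specific liver genes Cyp2c11 (male rats) and Cyp2c12 (female rats), at 4.08 and 10.5 under sevoflurane and 1.87 and 1.74 in control. Family 3, which in liver oxidises many drugs, had 3 of its 4 genes here, and the fourth, Cyp3a9, was above background on the sevoflurane array only, at 12.7 ± 2.62, against 2.64 ± 1.75 on the control array. Cyp4x1, known from rat brain, had 3.95 ± 2.35 under sevoflurane and 3.26 ± 1.73 in control, not well above background on either.

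Genes that regulate or serve these enzymes were taken from lists, of which counts are given without a test, and by rule the 5 measured genes with the largest difference are named. Over all measured genes 28.2% were higher and 11.2% lower as scaled, and 15.0% and 15.5% corrected. Median scaling, which puts the median of all genes at -0.83 where it is 0.27 as scaled, lowers every difference alike, and its counts are given beside the others. In the AHR list, 4 of 11 measured genes were at least 2-fold higher and 1 lower, both as scaled and corrected (3 and 2 under median scaling). Nqo1, a quinone reductase, was at 3.99 (4.14 corrected) and Nfe2l2, the gene of NRF2, at 2.70 (2.88). Aldh3a1 was at 2.13 (1.12) and Ahrr, the repressor of AHR, at 1.66 (1.57), with signals of 326 under sevoflurane and 199 in control. Arnt2 was lower, at -1.63 (-1.54), and Arnt itself was at 0.77 (0.32), but -0.33 under median scaling. The receptor gene Ahr was above background on the sevoflurane array only, at 13.9 against 6.82 on the control array, with a lower bound of the fold of 3.70 as scaled, 1.73 under median scaling and 1.03 corrected.

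Of the nuclear receptors and transcription factors that drive P450 genes, 8 of 14 measured were higher and 0 lower (5 and 0 corrected, 6 and 1 under median scaling). Cebpb was at 3.50 (3.64 corrected), Nr1i2 at 3.31 (1.87), the pioneer factor gene Foxa1 at 3.08 (3.21), Rxra, the common partner of these receptors, at 2.90 (1.84) and Hnf4a at 2.21 (0.96). Nr1i2 had a signal of 66.4 on the sevoflurane array against 12.9 on the control array. Nr1i3 was at 2.16 but 0.40 corrected and -0.22 after quantile normalization. Ppara was above background on the sevoflurane array only, with 14.9 against 1.85 on the control array and a lower bound of 3.98-fold as scaled, 1.86 under median scaling and 1.12 corrected.

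Among 10 electron donors 1 was higher and 1 lower (1 and 0 corrected, 1 and 4 under median scaling). Por, on which most microsomal P450 enzymes depend, was the lower one, with 1088 on the sevoflurane array against 4307 on the control array. Its difference was -1.04 (-0.90 corrected) and negative in all 6 scalings. Cyb5r2 was at 3.18 (2.08), and Cyb5b, Fdx1 and Cyb5r1 at 0.91, 0.78 and 0.39, all 3 negative under median scaling. Genes of haem synthesis and breakdown were at least 2-fold higher for 6 of 11 genes, and 0 were lower (7 and 0 corrected, but 2 and 2 under median scaling). Hmox1, which breaks down haem, had 16190 on the sevoflurane array against 1714 on the control array (4.19, 4.09 corrected). Alas2, the first enzyme of haem synthesis in red cells, was at 3.31 (3.49). Blvrb and Urod were both at 1.95 (0.86 and 0.85 under median scaling). Alas1, the form that supplies haem to P450 enzymes in liver, had no probe matched through an accession. Red blood cell markers moved with this list: all 8 were at least 2-fold higher (median 3.41, corrected 3.52), their summed signal was 51734 under sevoflurane and 17895 in control, and Alas2 is one of them. Their part in it was not tested.

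The list of arachidonic acid and epoxide metabolism, the pathway that Cyp4f and Cyp2j enzymes share, had 10 of 15 measured genes higher and 2 lower (7 and 3 corrected, 4 and 3 under median scaling). The acyl-CoA thioesterase gene Acot2 was at 4.22 (3.96 corrected), the cyclooxygenase genes Ptgs2 and Ptgs1 at 3.96 (2.61) and 3.45 (2.82), and the lipoxygenase gene Alox15 at 3.08 (2.11). Hpgd, which inactivates prostaglandins, was at -2.23 (-2.49). Ephx1, the microsomal epoxide hydrolase gene, was at 0.77 (0.92), but -0.32 under median scaling. In the P450 families above 4, 4 of 7 measured genes were higher and 2 lower (2 and 1 corrected, 1 and 2 under median scaling). Cyp11b1 was at 2.24 (1.31), Cyp21a1 at 2.01 (1.94), Cyp27a1 at 1.84 (0.43) and Ptgis, the prostacyclin synthase gene, at 1.81 (0.20), while Cyp26b1, which degrades retinoic acid, was at -1.57 (-1.49). Of 15 measured genes of drug conjugation and related steps, 7 were higher and 1 lower (5 and 2 corrected, 3 and 2 under median scaling), with Adh7 at 2.71 (1.59), Nat1 and Aox1 at 2.39 (1.05 and 1.61), Sult2b1 at 1.33 (-0.05) and Ugt8 at -2.28 (-2.96).

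**Figure D4:**
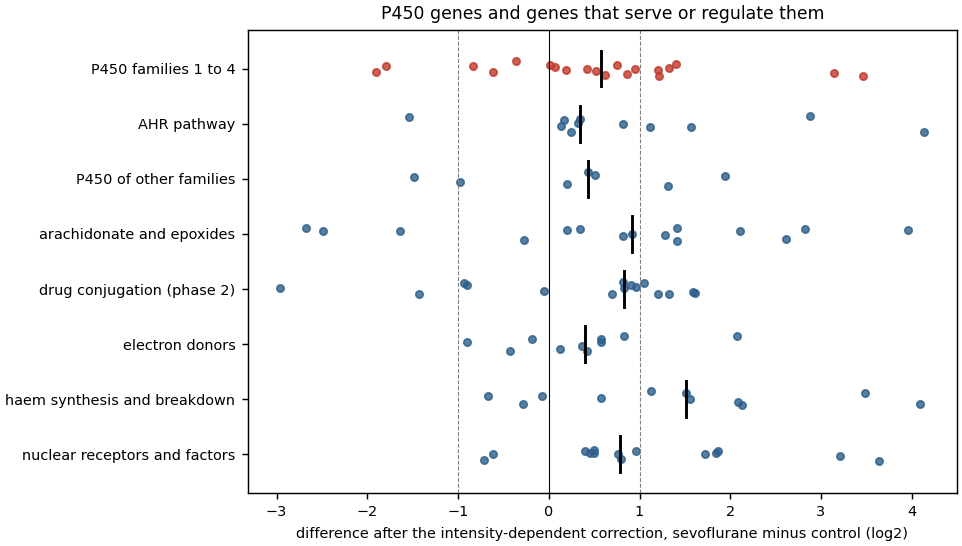
Corrected difference (sevoflurane minus control, log2) of each measured gene in the P450 set (red) and in 7 lists of related genes (blue), with black bars at the medians and dashed lines at 2-fold. The P450 genes spread from -1.90 to 3.46 around a median of 0.57, and the haem list has the highest median, 1.51.

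Markers of other cell types also differed between these samples, and fewer cells of a type and less RNA per cell cannot be told apart here. As a base, 28.2% of all measured genes were at least 2-fold higher and 11.2% lower as scaled. These shares were 15.0% and 15.5% corrected, and 10.5% and 43.5% under median scaling. Microglia and macrophage markers numbered 10 on the array, of which 8 were measured. Of the measured ones 6 were at least 2-fold lower and 0 higher (median -2.32, corrected -2.81). Their summed signal, unscaled, was 1257 under sevoflurane and 11975 in control, and the defining markers Cx3cr1 and Itgam were not well above background on either array. Mesenchymal and pericyte markers, cells known to express Cyp1b1, were higher for 5 of 9 genes and lower for 0 (median 1.41, corrected 1.02; 2 and 1 under median scaling). Their summed signal before scaling was 24938 under sevoflurane and 36155 in control, the other way round. Endothelial markers were higher for 3 of 3 measured genes (1 corrected), with 5 on the array. All 3 were dim: Flt1 lay in level group 1 and Cldn5 and Tek in group 2, where 75.6% and 58.7% of all genes were higher as scaled. Hepatocyte markers were higher for 5 of 6 measured genes (3 corrected), and their summed signal was 24592 under sevoflurane and 20048 in control, of which Ttr, also a choroid plexus gene, gave 21990 under sevoflurane and 19140 in control. A further 5 of 17 were above background on the sevoflurane array only, 1 on the control array only and 5 on neither. Neuronal markers were lower in 4 of 7 (6 corrected), and astrocyte markers higher in 3 and lower in 2 of 7 (1 and 4 corrected). The part of these cells in the P450 values was not tested.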

How the data were processed

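The authors deposited spot intensity from the scanner software, which the file headers name as Agilent Feature Extraction, version 11.0.1.1; nothing in those files scales one array to the other. Their deposited log2 table, whose making no label describes, was an alternative. Here, control spots and spots marked as outliers were left out (521 of 42136 on the sevoflurane array, 580 on the control array, 0 of the P450 spots). Log2 processed signals were averaged per probe, and each array's 75th percentile over 24629 usable probes was subtracted. Having 1 array per group limits precision. Of 49 P450 probes 48 have 1 spot per array. Between probes of a gene, differences had a median SD of 0.11 over the 237 genes with 2 or more measured probes. No P450 gene is among these, so that value does not give the precision of the P450 differences. The pair of Cyp2e1 probes had differences of 1.74 and 3.95, the latter from a probe not well above background on the control array. RefSeq accessions named 14274 of 15321 mRNA probes (gene table of GRCr8; the array design refers to rn4). The probe with the highest mean level stood for a gene. The intensity-dependent correction is a lowess with span 0.3 (statsmodels 0.14.6); normexp (limma 3.58.1, offset 50) used the median spot signal, since the files hold no mean signal. The scaling and its correction were tested on simulated data with a smooth trend and far fewer changed probes than differ here. That test checks the code and cannot show how well the correction suits these arrays. Members, lists and alternatives were chosen with earlier results of these data known. Named are all members, the 5 measured genes of each related list with the largest difference, and a fixed set of regulators; 1 gene that this rule names is not reported here.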

Additional observations from a re-analysis of the deposited data

How the results depend on the processing

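The count of P450 genes at least 2-fold higher, 15 as reported, was 6 under each of quantile normalization, intensity-dependent correction, median scaling and the deposited table. It was 43 with no detection filter, where all 48 genes enter and 46.1% of 13862 genes were higher (median of all genes 0.78), and 1 in the brighter part of the measured genes, which holds only Cyp4f6. The count at least 2-fold lower, 0 as reported, was 4 after quantile normalization, 2 after the correction, 2 after median scaling and 3 in the deposited table. The median, 1.79, was 0.39 with quantile normalization and also with the deposited table, 0.57 after the correction, 0.70 after median scaling, 1.14 after normexp, 2.43 with no detection filter and 3.33 in the brighter part. Keeping outlier-marked spots or averaging a gene's probes moved none of these counts by more than 1.5 times. Over all genes, 1368 were higher and 1968 lower after quantile normalization and 2823 higher and 1124 lower as reported; 1050 were higher and 4364 lower after median scaling, with a median of -0.83. Of the 8 genes that changed sign over the 6 scalings, 4 did so from a difference of at least 2-fold: Cyp2d4 (-0.08 with quantile normalization and with the deposited table), Cyp2e1 (-0.37 in both), Cyp4a8 (-0.11 and -0.12) and Cyp2j4 (-1.37, -0.84 and, after the correction, -0.36). The other 4, under 2-fold as reported, were Cyp2c6v1 (lowest -0.22), Cyp2t1 (lowest -0.85), Cyp4v3 (lowest -1.13) and Cyp2d1 (highest 0.57). The lowest control value of the deposited table, 2.73, is shared by 6203 entries, 24 of them member probes, so low values there have no order. With 1 array per group, no difference can be set against variation between cultures. No paired analysis was possible because each group has 1 sample.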
